A study of Mus musculus with 12 samples.

Results

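The genes described here are 10 genes of the T cell checkpoint and costimulation system, 9 receptors and 1 ligand: Ctla4, Cd28, Icos, Pdcd1, Lag3, Havcr2, Cd160, Btla, Tigit and Cd274. They were chosen by name, and each was represented by the probe set with the highest mean log2 intensity over the 12 arrays, with its other probe sets set beside it. A named probe set was found for 9 of the 10, and these are 9 of 18193 genes on the array. Tigit was not analysed here. Each of the 9 lay above the filter level used for testing (log2 6.33, the median of all values) in at least 2 arrays. Havcr2 passed that filter only through the 2 leukaemic stem cell arrays, and Lag3 through 4 arrays.

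A T cell needs a second signal beside its antigen receptor, and CD28 gives it when it binds CD80 or CD86 on another cell. CTLA-4 competes with CD28 for the same ligands and restrains activation, while ICOS, a relative of CD28, appears on activated cells and adds to the signal. PD-1 (Pdcd1), LAG-3, TIM-3 (Havcr2), BTLA and CD160 are further receptors that mostly dampen T cells, and PD-L1 (Cd274) is the ligand of PD-1. In the thymus Cd28 is on in developing T cells, whereas most of the inhibitory receptors are known for activated, regulatory or exhausted T cells.

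The series profiles mice with disease driven by the ZMYM2-FGFR1 fusion kinase. The groups were the ZNF112 cell line (1 array, for which the labels give no more than its name), T lymphomas from ZMYM2-FGFR1 disease mice of the third serial transplant (4 arrays), sorted Thy1+ CD4+CD8+ double-positive (DP) thymocytes of normal Balb/c mice (3 arrays), leukaemic stem cells sorted as GFP+ Lin-Sca-1+c-kit+ cells from marrow or spleen of ZMYM2-FGFR1 mice (LSC, 2 arrays), and haematopoietic stem cells sorted as Lin-Sca-1+c-kit+ cells from marrow of normal female Balb/c mice (HSC, 2 arrays). Lymphomas 1 to 3 were unsorted tumours, mostly GFP+ Thy1+ DP cells, and lymphoma 4 was sorted for such cells. The sorted normal cells and the LSC were pools of several mice. Because these are bulk samples, fewer cells of a type and less RNA per cell cannot be told apart.

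Array medians were 99.5 to 109 in the ZNF112, lymphoma and DP arrays and 44.3 to 46.1 in the LSC and HSC arrays, so the 2 sides looked normalized apart and every test was made within a side. The mean correlation between arrays over 12797 genes was 0.920 among lymphomas, 0.995 among DP thymocytes, 0.795 between the LSC arrays and 0.940 between the HSC arrays; genes are not independent replicates. LSC 2 correlated at 0.869 to 0.897 with the 4 lymphomas and at 0.791 and 0.801 with the HSC arrays. The summed intensity of 8 measured T cell markers was 40000 in ZNF112, 37600 to 62600 in lymphomas, 97400 to 111000 in DP thymocytes, 3050 and 21300 in LSC 1 and LSC 2, and 350 and 665 in HSC. ZNF112 had Cd3d at log2 13.42 but Cd4 and Cd8b1 at only 6.88 and 6.19. Of 6 measured stem and progenitor markers, Mecom, Hlf and Meis1 fell in LSC against HSC and the other 3 did not pass: Kit had a log2 difference of 0.43 ± 1.10, Cd34 of -3.13 ± 1.68 (low in LSC 2 only) and Procr of -0.97 ± 0.72. LSC 1 also carried high levels of most mast cell and basophil markers. Cpa3 and Fcer1a were at log2 14.48 and 13.99 there, against 5.25 and 5.20 in LSC 2. In HSC Cpa3 was at 9.58 and 9.46 and Fcer1a at 8.52 and 8.26. Gata2 and Ms4a2 were also highest in LSC 1. Mcpt8 went the other way against HSC, at 8.74 in LSC 1 and at 10.7 and 10.11 in HSC.

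**Figure D1:**
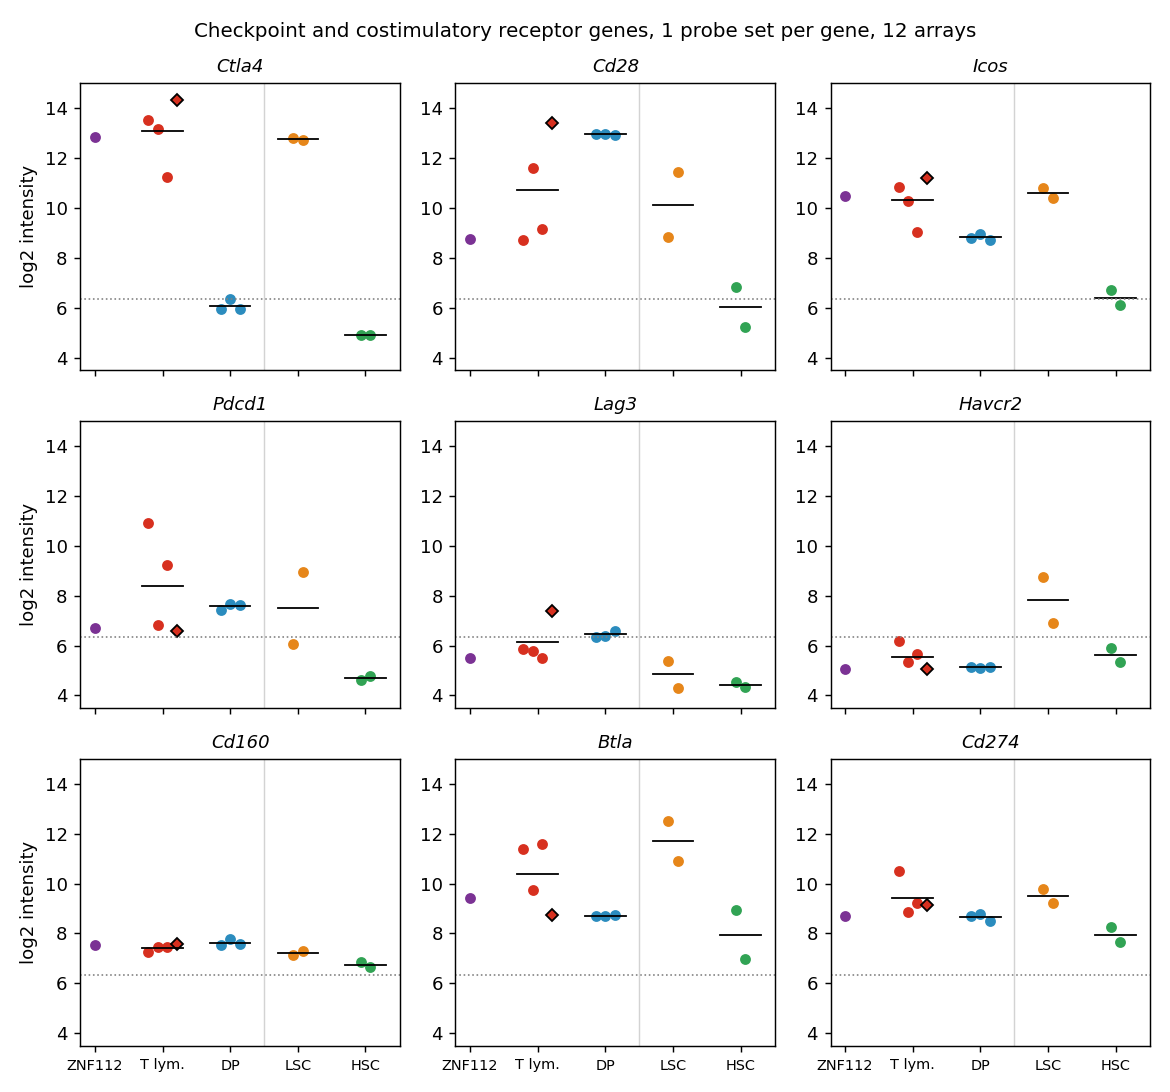
Log2 intensity of each receptor gene (vertical axis) on each of the 12 arrays, by group (horizontal axis; T lym. is T lymphoma). Points are arrays, the diamond is the sorted lymphoma, bars are group means, the dotted line is the filter level of 6.33 and the vertical line parts the 2 normalization sides. Ctla4 lies between 11.24 and 14.31 in lymphomas, at 12.82 in ZNF112 and at 12.81 and 12.73 in LSC, far above DP thymocytes and HSC. Cd28 and Pdcd1 spread widely among the lymphomas.

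Ctla4 was the receptor gene that moved most, and it did so on both sides. Its log2 intensity was 13.51, 13.16, 11.24 and 14.31 in lymphomas 1 to 4, against 5.95, 6.34 and 5.93 in DP thymocytes. Every lymphoma lay above every DP array, and the sorted tumour was the highest. T lymphoma exceeded DP thymocytes by a log2 difference of 6.98 ± 0.59 (SE), a 126-fold change in intensity (limma, Benjamini-Hochberg adjusted p = 0.000167). With the sorted tumour, a single array, as the only lymphoma the log2 difference was 8.23. The cell line had a Ctla4 log2 intensity of 12.82, within the range of the lymphomas.

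In LSC 1 and LSC 2 the Ctla4 log2 intensity was 12.81 and 12.73, against 4.92 and 4.91 in HSC 1 and HSC 2. The LSC arrays lay close together on this gene and far above both HSC arrays. Of 8 T cell markers, 6 also rose in LSC, among them Cd3e by 2.27 ± 0.49. Their summed intensity was 3050 in LSC 1 and 21300 in LSC 2, where Ctla4 was nearly the same. Their part in the LSC values was not tested. The log2 difference of Ctla4 was 7.85 ± 0.77 (limma, adjusted p = 0.000598). Both HSC arrays lay under the filter level and the DP arrays close to it, so the size of both changes rests on low values. When only the 4 stem cell arrays entered the fit the adjusted p for Ctla4 was 0.0529, which was the smallest of all genes. Set over each array's median, Ctla4 was at 6.11 log2 units in ZNF112, 6.34 ± 1.35 (SD, n = 4) in lymphomas, -0.61 ± 0.24 (n = 3) in DP thymocytes, 7.29 ± 0.07 in LSC and -0.60 ± 0.02 in HSC (n = 2 each). Lymphomas overlapped with both LSC and the cell line on that scale, HSC overlapped with DP thymocytes, and nothing lay between the 2 sets. Such levels still carry any offset between the normalization sides.

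Markers of other cells are given here beside Ctla4, and their part in its values was not tested. Foxp3, the defining factor of regulatory T cells, which are known for high CTLA-4, was at log2 5.11 in ZNF112, 5.19 to 5.28 in lymphomas, 5.16 to 5.23 in DP thymocytes, 5.3 and 4.8 in LSC and 4.57 and 3.90 in HSC, under the filter level on all 12 arrays. The other regulatory T cell markers moved with Ctla4 in part: of the 5 tested in T lymphoma, Il2ra and Ikzf4 rose, Ikzf2 fell, and Nrp1 and Tnfrsf18 had log2 differences of 2.24 ± 0.77 and 1.15 ± 0.54 that did not pass. The summed intensity of the 6 markers was 21100 in ZNF112, 17500 to 22900 in lymphomas, 8540 to 9630 in DP thymocytes, 15000 and 11000 in LSC 1 and LSC 2, and 1610 and 1590 in HSC. The summed intensity of 12 macrophage and dendritic cell markers was 1580 in ZNF112 and 1440 in the sorted lymphoma, near the 1320 to 1380 of DP thymocytes, and 17100 to 42500 in the unsorted lymphomas. That of 10 stroma and endothelium markers was 965 in ZNF112, 861 in the sorted lymphoma and 15000 to 31400 in the unsorted ones, against 890 to 1040 in DP thymocytes. Ctla4 in the ZNF112 cell line and the sorted lymphoma, both with low macrophage and stroma markers, was at 12.82 and 14.31. The unsorted lymphomas were at 11.24 to 13.51.

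Icos, the costimulatory relative that neighbours Ctla4, was higher in LSC on its brightest probe set. Its log2 intensity was 10.79 and 10.37 in LSC 1 and LSC 2, against 6.69 and 6.12 in HSC. The groups did not overlap, and the log2 difference of 4.18 ± 0.58 passed (limma, adjusted p = 0.00298). In lymphomas 1 to 4 it was 10.82, 10.25, 9.04 and 11.17, against 8.80, 8.93 and 8.70 in DP thymocytes. All lymphomas lay above all DP arrays, though lymphoma 3 only just, and the log2 difference of 1.51 ± 0.45 did not pass (limma, adjusted p = 0.0833). ZNF112 was at 10.48, within the lymphoma range. Without lymphoma 3 the difference was 1.94 ± 0.28 and passed (limma, adjusted p = 0.00519).

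The other Icos probe sets gave smaller differences. The second probe set had log2 differences of 1.12 ± 0.49 between lymphoma and DP thymocytes and 2.02 ± 0.65 between LSC and HSC, neither past the test over all probe sets (limma, adjusted p = 0.214 and 0.0858). The third, close to the filter level, gave 0.71 ± 0.48 and 0.93 ± 0.62 (limma, adjusted p = 0.414 and 0.401). All of them had the same sign as the brightest Icos probe set in both comparisons, but they differed from it in LSC 1. The probe set close to the filter level read 4.87 and 6.76 in LSC 1 and LSC 2, against 5.00 and 4.76 in HSC 1 and HSC 2. The other read 6.26 and 8.29, against 5.47 and 5.06. Both were under the filter level in LSC 1 and lower there than in LSC 2. The high Icos value of LSC 1 thus rests on the brightest probe set alone.

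Cd28 was uneven among the tumours. It had a log2 intensity of 8.71, 11.59, 9.14 and 13.40 in lymphomas 1 to 4, against 12.96, 12.97 and 12.91 in DP thymocytes. The 3 unsorted lymphomas lay below every DP array and the sorted lymphoma above them all. The log2 difference was -2.23 ± 1.11 over the 4 lymphomas and did not pass (limma, adjusted p = 0.271). With the sorted tumour alone, a single array, it was 0.45. ZNF112, at 8.75, was near the 2 lowest tumours. The second Cd28 probe set followed the first, with 7.94, 11.07, 8.36 and 12.93 in lymphomas 1 to 4, 12.87, 12.73 and 12.64 in DP thymocytes, and 7.98 in the cell line.

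Among the stem cell samples the Cd28 log2 intensity was 8.81 and 11.43 in LSC 1 and LSC 2, against 6.83 and 5.23 in HSC. Both LSC arrays were above both HSC arrays, LSC 2 by far, and the log2 difference of 4.10 ± 1.45 did not pass (limma, adjusted p = 0.112). The second Cd28 probe set read 6.78 and 11.40 in LSC 1 and LSC 2, against 6.71 and 3.63 in HSC 1 and HSC 2. On it LSC 1 was level with HSC 1, and the log2 difference was 3.92 ± 1.86 (limma over all probe sets, adjusted p = 0.229). LSC 2 was also the array with 7 of 8 T cell markers above the filter level and the larger summed T cell signal; the part of T cell content in the Cd28 value was not tested. The Cd28 contrasts had opposite signs, and their difference (lymphoma minus DP, minus LSC minus HSC) of -6.33 ± 1.83 missed the threshold (limma, adjusted p = 0.0628). Without the sorted lymphoma that difference was -7.22 ± 1.40 (limma, adjusted p = 0.0147), and without LSC 1 it was -7.64 ± 1.99 (limma, adjusted p = 0.0335).

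Cd28, Ctla4 and Icos lie side by side on chromosome 1 in the RefSeq annotation, with no other protein-coding gene between them. Their neighbours on the Cd28 side, Raph1 and Abi2, had log2 differences of -0.04 ± 0.61 and -0.88 ± 0.67 between lymphoma and DP thymocytes, and 1.82 ± 0.80 and -0.24 ± 0.88 between LSC and HSC. None of these passed. On the Icos side, Pard3b, a cell polarity gene, was at 0.11 ± 0.17 in lymphoma against DP thymocytes and fell by 1.88 in LSC against HSC (limma, adjusted p = 0.00141), while Nrp2 was at 0.87 ± 0.33 and -0.44 ± 0.43.

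**Figure D2:**
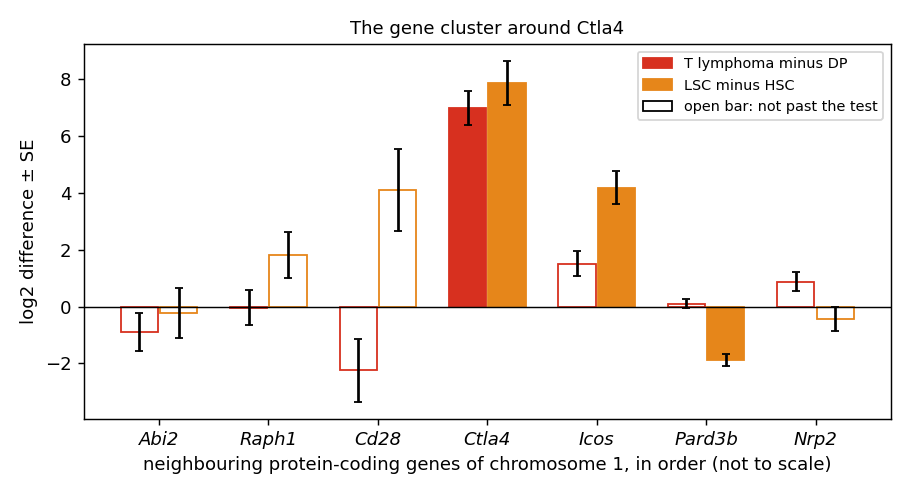
Log2 difference (vertical axis, bars, ± SE from limma) of Ctla4 and the 3 protein-coding genes on either side of it, in their order on chromosome 1 and not to scale. Filled bars passed the test. Ctla4 stands at 6.98 and 7.85, Icos at 1.51 and 4.18, and Cd28 at -2.23 and 4.10 (T lymphoma minus DP, then LSC minus HSC), while Abi2 and Nrp2 stay within 1 log2 unit of 0.

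Btla encodes an inhibitory receptor that binds the TNF receptor family member HVEM. Its log2 intensity was 12.52 and 10.90 in LSC 1 and LSC 2, against 8.92 and 6.96 in HSC. The groups did not overlap, and Btla rose by 3.77 ± 0.99 on the log2 scale in LSC (limma, adjusted p = 0.0432). In lymphomas 1 to 4 it was 11.39, 9.73, 11.59 and 8.74, against 8.70, 8.70 and 8.75 in DP thymocytes. The 3 unsorted lymphomas were above all DP arrays and the sorted one was level with them. The log2 difference of 1.65 ± 0.76 did not pass (limma, adjusted p = 0.238), and with the sorted tumour alone, a single array, it was 0.02. ZNF112 was at 9.41.

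Havcr2, which encodes TIM-3, is known from exhausted T cells and also from myeloid and mast cells. It had a log2 intensity of 8.76 and 6.91 in LSC 1 and LSC 2, against 5.91 and 5.35 in HSC. LSC 1 was the highest of the 12 arrays, and Havcr2 rose by 2.20 ± 0.55 in LSC (limma, adjusted p = 0.0351), with both HSC arrays under the filter level. It entered the test only through the 2 LSC arrays, the group where it was then called higher. With no filter on low values its adjusted p was 0.045 (limma). The summed intensity of 5 mast cell and basophil markers was 58800 in LSC 1 and 271 in LSC 2, against 4810 and 3920 in HSC. That of the macrophage and dendritic cell markers was 20300 and 2680, against 22400 and 4480. Their part in the Havcr2 value was not tested. In lymphomas 1 to 4 Havcr2 was at 6.17, 5.33, 5.65 and 5.08, against 5.14, 5.10 and 5.15 in DP thymocytes, and at 5.06 in ZNF112, all under the filter level.

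Of the 9 measured genes, Ctla4 alone was higher in T lymphoma than in DP thymocytes, where 3.37% of the 12797 genes tested were, and 0 were lower, where 3.18% of all genes were (limma, adjusted p under 0.05). At an unadjusted p under 0.05 the count was 2 of 9, Ctla4 and Icos, where 22.6% of all genes were, so that count is at the background. Between LSC and HSC, 4 of 9 were higher (Ctla4, Icos, Havcr2 and Btla), where 4.05% of all genes were, and 0 were lower, where 6.21% were. Havcr2 entered the test only through the LSC arrays, and without it the count is 3 of 8. At an unadjusted p under 0.05 the LSC count was 7 of 9, Havcr2 among them, where 25.9% of all genes were. The median log2 difference of the 9 genes was 0.77 for T lymphoma against DP thymocytes and 2.81 for LSC against HSC, beside -0.02 and -0.03 over all genes tested.

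The calls between LSC and HSC were not equally firm. Btla lost its call in 7 of 15 alternative fits, among them those without HSC 2 (2.79 ± 1.16, limma, adjusted p = 0.214) and without LSC 1 (2.96 ± 1.17, adjusted p = 0.121). Havcr2 lost its call without any of HSC 1, HSC 2 or LSC 1 (limma, adjusted p = 0.0695, 0.158 and 0.0712), and without LSC 1 its log2 difference was 1.28 ± 0.42. Icos and Ctla4 kept their calls whichever LSC or HSC array was left out.

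**Figure D3:**
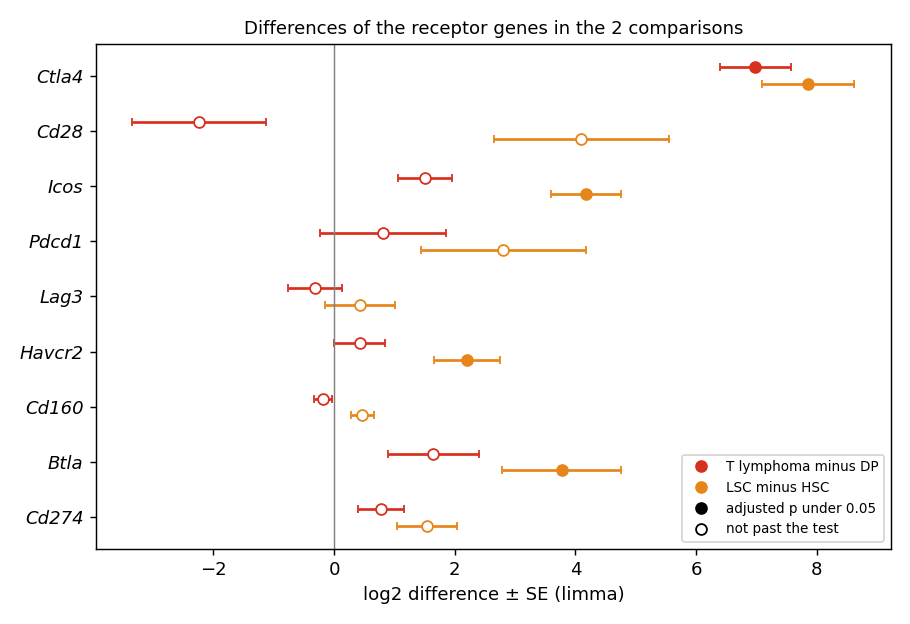
Log2 difference ± SE (horizontal axis) of the 9 measured genes (vertical axis) between T lymphoma and DP thymocytes and between LSC and HSC. Filled points passed the test over all genes. Ctla4 is at 6.98 and 7.85, Cd28 has opposite signs (-2.23 and 4.10), and Cd160 (leading probe set) and Lag3 lie within 0.5 log2 units of 0 in both.

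For the called genes that have one, RefSeq promoters (build GRCm38.p6) are shown here. The level of these genes differed past the test in LSC and, for Ctla4, in the tumours. Havcr2 entered that test only through the LSC arrays. Each window spans the annotated start, and entries were found for 7 of the 10 listed genes. Capitals mark the motifs searched on both strands: the NFAT core GGAAA, the AP-1 motif TGANTCA and the STAT motif TTCNNNGAA, which do not overlap here.

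Ctla4 promoter, chr1:60908775-60909074, + strand: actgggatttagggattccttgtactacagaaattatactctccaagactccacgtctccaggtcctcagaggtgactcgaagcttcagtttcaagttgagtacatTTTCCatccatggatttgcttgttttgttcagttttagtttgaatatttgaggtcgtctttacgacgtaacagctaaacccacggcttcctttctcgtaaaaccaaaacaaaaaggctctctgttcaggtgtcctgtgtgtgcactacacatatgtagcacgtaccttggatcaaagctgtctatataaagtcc
Havcr2 promoter, chr11:46454681-46454980, + strand: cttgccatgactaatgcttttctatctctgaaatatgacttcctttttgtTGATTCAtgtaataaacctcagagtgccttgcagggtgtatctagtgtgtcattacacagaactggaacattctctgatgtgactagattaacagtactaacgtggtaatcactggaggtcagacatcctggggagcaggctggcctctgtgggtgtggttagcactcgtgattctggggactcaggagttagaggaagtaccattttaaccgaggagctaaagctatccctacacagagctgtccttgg
Btla promoter, chr16:45224087-45224386, + strand: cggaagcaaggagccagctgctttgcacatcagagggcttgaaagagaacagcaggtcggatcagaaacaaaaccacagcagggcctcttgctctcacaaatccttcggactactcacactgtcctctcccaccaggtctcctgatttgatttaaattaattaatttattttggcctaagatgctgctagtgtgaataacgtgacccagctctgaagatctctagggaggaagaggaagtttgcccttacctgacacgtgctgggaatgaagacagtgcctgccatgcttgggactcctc

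The Ctla4 window holds 1 NFAT core, read on the minus strand as TTTCC, 144 bases before the start. The Havcr2 window holds 1 match to the AP-1 letters TGANTCA, with T as the free middle base, and the Btla window holds none of the 3 motifs. Of 32851 mouse promoters of this length, 61.3% hold the NFAT core, 7.81% the AP-1 motif and 8.30% the STAT motif, so the Ctla4 match is a common one. A match is a description of letters and not a binding site.

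Pdcd1, the gene of PD-1, was high in some tumours only. Its log2 intensity was 10.92, 6.83, 9.24 and 6.59 in lymphomas 1 to 4, against 7.43, 7.67 and 7.64 in DP thymocytes. Lymphomas 1 and 3 were above all DP arrays, and lymphomas 2 and 4 below them. The log2 difference was 0.82 ± 1.04 (limma, adjusted p = 0.707), and without lymphoma 1 it was -0.03 (limma, adjusted p = 0.994). LSC 1 and LSC 2 were at 6.06 and 8.93, against 4.62 and 4.76 in HSC, a log2 difference of 2.81 ± 1.37 that did not pass (limma, adjusted p = 0.234). ZNF112 was at 6.72.

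Cd274, the gene of the PD-1 ligand PD-L1, is induced by interferon gamma in many cells. Its log2 intensity was 10.52, 8.86, 9.20 and 9.14 in lymphomas 1 to 4, against 8.70, 8.77 and 8.51 in DP thymocytes. Every lymphoma was above every DP array, lymphoma 2 by little, and the log2 difference of 0.77 ± 0.38 did not pass (limma, adjusted p = 0.265). In LSC it was 9.77 and 9.20, against 8.26 and 7.64 in HSC, with no overlap and a log2 difference of 1.54 ± 0.50 (limma, adjusted p = 0.0834). ZNF112, at 8.69, was level with DP thymocytes.

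Lag3 encodes a CD4-like receptor that binds MHC class II. Its log2 intensity was 5.86, 5.78, 5.49 and 7.38 in lymphomas 1 to 4, against 6.36, 6.37 and 6.60 in DP thymocytes. The unsorted lymphomas were below the DP arrays and the sorted one above them, and the log2 difference was -0.31 ± 0.44 (limma, adjusted p = 0.739). ZNF112 was at 5.49, and all LSC and HSC arrays lay under the filter level, at 5.40 and 4.30 in LSC and 4.53 and 4.32 in HSC. Lag3 lies beside Cd4 on chromosome 6, and of the 3 genes on either side of it P3h3, Gpr162, Cd4 and Ptms fell in T lymphoma against DP thymocytes, with log2 differences of -1.89, -2.08, -2.88 and -1.21 (limma, adjusted p = 0.00267, 0.00346, 0.0029 and 0.0177). The remaining 2, Mlf2 and Cops7a, did not pass, at log2 differences of -1.21 ± 0.51 and 0.16 ± 0.16 (limma, adjusted p = 0.202 and 0.615). This stretch was picked out after its values were seen.

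Cd160, the gene of a lipid-anchored receptor of cytotoxic cells, changed little on its leading probe set. That probe set ran between log2 7.27 and 7.57 in lymphomas and between 7.53 and 7.77 in DP thymocytes, a log2 difference of -0.19 ± 0.15 (limma, adjusted p = 0.5). In LSC it was 7.13 and 7.29, against 6.84 and 6.65 in HSC, a difference of 0.47 ± 0.19 (limma, adjusted p = 0.165). A second probe set, lower in level, went the other way in the tumours, with 8.13, 7.49, 6.31 and 6.27 in lymphomas 1 to 4, against 5.69, 6.0 and 6.0 in DP thymocytes. Its log2 difference of 1.15 ± 0.59 did not pass over all probe sets (limma, adjusted p = 0.279). In LSC 1 and LSC 2 the second probe set read 5.02 and 7.32, against 4.56 and 4.2 in HSC. That difference of 1.79 ± 0.77 did not pass either (limma, adjusted p = 0.187). Of the remaining Cd160 probe sets, one gave 0.22 ± 0.30 in T lymphoma and 0.74 ± 0.39 in LSC (limma, adjusted p = 0.726 and 0.284). The other lay under the filter level on all arrays. The 2 brightest probe sets disagree in sign in T lymphoma, and the direction for Cd160 is uncertain.

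The order of the 4 lymphomas differed between receptor genes. Pdcd1 and Havcr2 were highest in lymphoma 1, then 3, 2 and 4, and Cd28 was lowest in lymphoma 1, then 3, 2 and 4. Btla was highest in lymphoma 3 and lowest in the sorted lymphoma 4, which in turn had the highest Ctla4, Icos, Lag3 and Cd28. Macrophage and dendritic cell markers summed to 42500, 17100, 22300 and 1440 in lymphomas 1 to 4, the same order as Pdcd1. Stroma and endothelium markers (31400, 15000, 17900 and 861) and stem and progenitor markers (3490, 1030, 1430 and 311) had that order too, and B cell markers, at 9770, 12500, 23000 and 3260, a different one. Most of that B cell sum was Ighm, at log2 13.15, 13.54, 14.07 and 11.47. Cd79a, Cd79b and Ms4a1 had the same order as Btla, highest in lymphoma 3, then 1, 2 and 4. Ighm, Cd22, Pax5 and Blk were also highest in lymphoma 3 but had other orders below it. ZNF112, with macrophage markers at 1580, had Pdcd1 and Havcr2 near the sorted lymphoma but a low Cd28. With 4 tumours their part in the Pdcd1, Btla and Cd28 values was not tested.

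**Figure D4:**
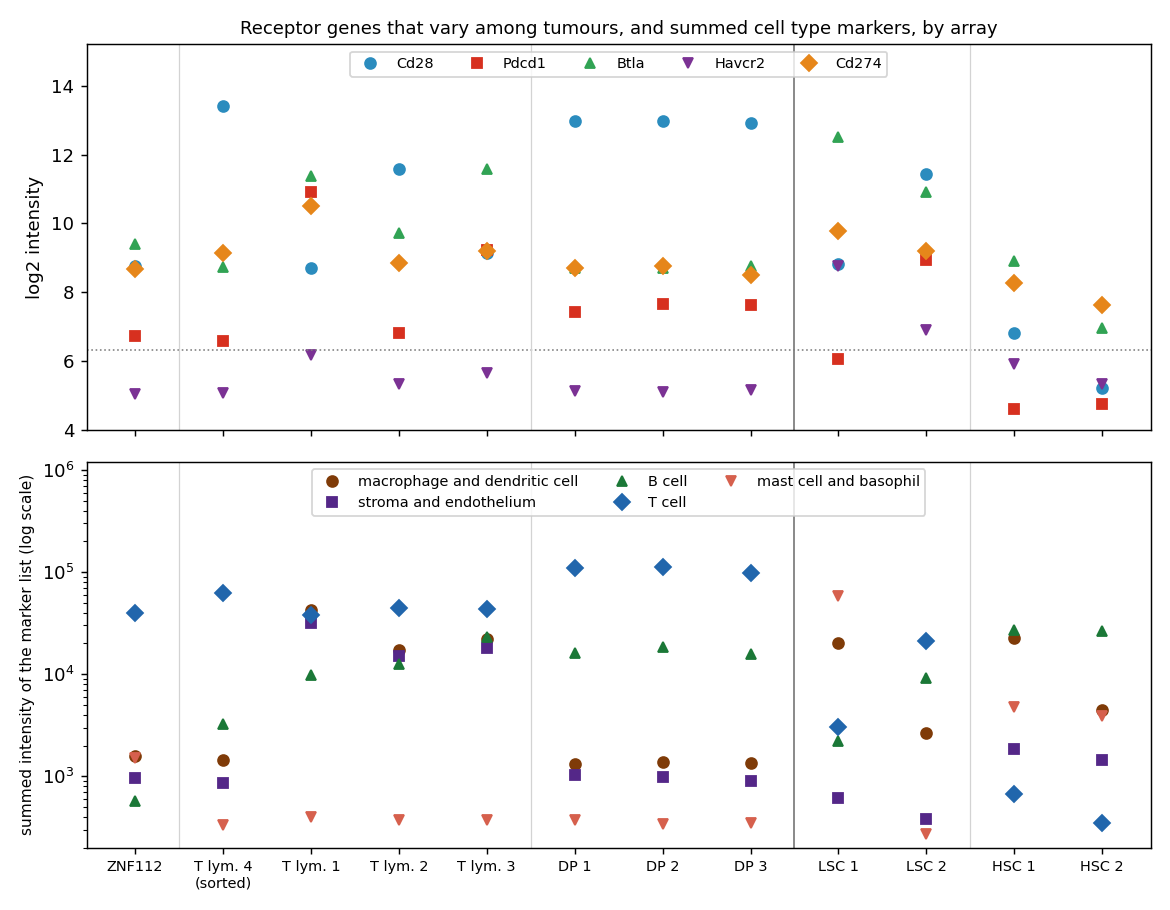
Upper panel: log2 intensity of Cd28, Pdcd1, Btla, Havcr2 and Cd274 by array (horizontal axis), with the filter level of 6.33 as a dotted line. Levels of different genes are not comparable. Lower panel: summed intensity of 5 marker lists on a log axis. In the sorted lymphoma the macrophage list is at 1440 and in lymphomas 1 to 3 between 17100 and 42500, and the mast cell list stands at 58800 in LSC 1.

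Lymphoma 4, sorted to learn how sorting acts on expression, was compared with lymphomas 1 to 3. None of the 9 genes passed, where 0.656% of all genes did (limma, adjusted p under 0.05), and 3 of 9 had an unadjusted p under 0.05, as 9.99% of all genes did. Cd28 was higher by a log2 difference of 3.58 ± 1.25 in the sorted tumour (limma, adjusted p = 0.362), Lag3 by 1.67 ± 0.40 (adjusted p = 0.154) and Ctla4 by 1.67 ± 0.73 (adjusted p = 0.501). Btla was at -2.17 ± 0.94 (limma, adjusted p = 0.5) and Pdcd1 at -2.40 ± 1.43 (adjusted p = 0.654). A single array was sorted, so tumour and sorting cannot be told apart, and its spread was borrowed from the remaining groups.

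The ZNF112 cell line was compared with the 4 lymphomas. None of the 9 genes passed, where 1.16% of all genes did (limma, adjusted p under 0.05), and 0 had an unadjusted p under 0.05, as 12.1% of all genes did. The largest log2 differences were -1.96 ± 1.62 for Cd28 and -1.68 ± 1.53 for Pdcd1 (limma, adjusted p = 0.714 and 0.752). Ctla4 and Icos were at -0.24 ± 0.86 and 0.16 ± 0.65. The cell line has 1 array, so its own spread was borrowed from the remaining groups.

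Whether the receptors changed differently in T lymphoma against DP thymocytes and in LSC against HSC was tested as the difference of the contrasts. None of the 9 passed, where 8.88% of all genes did (limma, adjusted p under 0.05), and 4 of 9 had an unadjusted p under 0.05 (Icos, Cd28, Cd160 and Havcr2), as 25.4% of all genes did. Icos had a difference of -2.67 ± 0.74 (limma, adjusted p = 0.0543) and Havcr2 of -1.78 ± 0.69 (adjusted p = 0.145). Ctla4 was at -0.87 ± 0.97, so the size of its change could not be told apart between lymphoma and LSC.

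Counts of called genes in the lists that follow stand beside 3.37% higher and 3.18% lower of all genes in T lymphoma, and 4.05% higher and 6.21% lower in LSC, and a single call in a list of 13 or 20 genes is close to those shares. Of 16 ligands and partners of these receptors, 13 were tested in T lymphoma against DP thymocytes, and Pvr, the ligand that TIGIT, CD96 and CD226 share, was the only one called (median log2 difference 0.10, and -0.02 over all genes). Pvr fell by 1.60 ± 0.18 in T lymphoma against DP thymocytes (limma, adjusted p = 0.000954) and rose by 1.74 ± 0.24 in LSC against HSC (adjusted p = 0.00267). The difference between these contrasts passed, at -3.33 ± 0.30 (limma, adjusted p = 0.000523), and ZNF112 was lower than the lymphomas, with a log2 difference of -1.55 ± 0.27 (adjusted p = 0.0316). Cd86, a shared ligand of CD28 and CTLA-4, had a log2 difference of 2.16 ± 0.87 in lymphoma against DP thymocytes (limma, adjusted p = 0.181), and Cd200, the neighbour of Btla, 1.60 ± 0.43 (adjusted p = 0.0592). In LSC against HSC, Cd96 was at 1.75 ± 1.06 and Lgals9, a ligand of TIM-3, at -1.47 ± 0.65, neither past the test. The median of the list in LSC was 0.41, beside -0.03 over all genes.

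Of 26 other coinhibitory or costimulatory receptors, 20 were tested. In T lymphoma 1 fell, Cd5, which tunes down T cell receptor signals, by 6.82 ± 0.33 (limma, adjusted p = 4.51e-06), and the others did not pass, with a median of 0.08. In LSC 2 rose, Cd2, the adhesion and costimulation receptor for CD48, by 4.21 ± 0.78, and Tnfrsf9, which encodes 4-1BB, by 2.99 ± 0.71 (limma, adjusted p = 0.0106 and 0.0306), with a median of 0.47. Entpd1 and Lair1 in lymphoma (1.61 and 1.52) and Slamf6 in LSC (2.55; limma, adjusted p = 0.0564) had differences that did not pass.

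Of 28 genes of signalling below CD28 and the inhibitory receptors, 24 were tested. In T lymphoma 2 rose, Cblb, a ubiquitin ligase that sets the need for CD28, by 1.84 ± 0.26, and the phosphatase Ptpn2 by 0.74 ± 0.17. The diacylglycerol kinase Dgkz fell by 1.92, the PI3 kinase subunit Pik3cg by 1.16 and the exchange factor Vav1 by 0.90 (limma, adjusted p = 0.00045, 0.0465 and 0.0468). In LSC 5 rose: the proximal kinase Zap70 (3.00 ± 0.61), Cblb (2.85 ± 0.34), the adaptor Lat (2.54 ± 0.42), and the phosphatases Ptpn22 (2.32 ± 0.55) and Ptpn2 (1.12 ± 0.23). Dgkz fell there too, by 1.21. Cblb, Ptpn2 and Dgkz thus passed with the same sign in both comparisons, which share no arrays but share 1 estimate of the spread. The share of all genes that did so is not given here, so this is a description only. The medians were -0.54 in T lymphoma and 0.84 in LSC.

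Of 29 transcription factors known from exhausted and regulatory T cells, 26 were tested. In T lymphoma 5 rose: Bhlhe40 (3.68 ± 0.78), Ikzf4 (3.55 ± 0.34), Runx3 (3.33 ± 0.73), Id2 (3.21 ± 0.76) and Nfatc2 (2.18 ± 0.47), and 3 fell: Bcl6 (-3.85 ± 0.45), Tox (-2.66 ± 0.31) and Ikzf2 (-2.19 ± 0.38) (limma, adjusted p under 0.05 for each). Tox, the factor that maintains exhausted T cells and also acts in thymocyte development, was lower in the tumours than in DP thymocytes. Its relation to Ctla4 was not tested. In LSC 8 rose and 0 fell, led by Bhlhe40 (4.22 ± 1.02), Lef1 (3.81 ± 0.37), Nr4a3 (3.75 ± 0.80), Tox2 (3.20 ± 0.87), Ikzf4 (2.94 ± 0.44) and Hif1a (2.62 ± 0.29). Id3 (-3.15 ± 1.04) and Maf (2.5 ± 1.19) in lymphoma did not pass. The medians were 0.27 in T lymphoma and 1.67 in LSC.

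Of 20 cytokines, cytotoxic genes and cytokine receptors of activated T cells, 16 were tested. In T lymphoma 5 rose: Il2ra (7.17 ± 0.21), the interleukin-7 receptor Il7r (4.14 ± 0.73), granzyme A (Gzma, 4.0 ± 0.24), the interleukin-10 receptor Il10ra (3.17 ± 0.55) and Il18r1 (2.55 ± 0.61), while the interleukin-4 receptor Il4ra fell by 2.32. In LSC 5 rose: Ifng (8.85 ± 1.66), Gzma (7.88 ± 0.31), Il2ra (7.71 ± 0.28), Il18r1 (3.61 ± 0.80) and Tnf (1.05 ± 0.27). The medians were 1.92 in T lymphoma and 1.52 in LSC. Ifng in lymphoma (4.16 ± 1.27) did not pass (limma, adjusted p = 0.0919).

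Several of these LSC changes rest on values under the filter level in the other group: Cd2, Zap70, Lef1, Nr4a3, Ikzf4, Il2ra, Ifng and Tnf lay under it in both HSC arrays. That level (intensity 80.2) is above the HSC array medians of 46.1 and 45, so a value under it can still lie over the array's median. In T lymphoma, Il10ra and Il18r1 lay under the filter level in DP thymocytes.

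Set over each array's median, the other receptors had different orders across the 5 groups, with any offset between the sides still in them. Icos was at 3.77 log2 units in ZNF112, 3.60 in lymphomas, 2.12 in DP thymocytes, 5.10 in LSC and 0.89 in HSC, and only ZNF112 and lymphomas, neighbours in that order, overlapped. Cd28 was at 2.05 in ZNF112, 3.99 in lymphomas, 6.26 in DP thymocytes, 4.64 in LSC and 0.52 in HSC. The lymphomas, which ran between 1.96 and 6.76, overlapped with DP thymocytes, LSC and the cell line, and HSC lay below all other groups.

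Btla was at 2.70 in ZNF112, 3.64 in lymphomas, 2.03 in DP thymocytes, 6.23 in LSC and 2.43 in HSC, and LSC alone stood clear of its neighbour in the order. Pdcd1 was at 0.01, 1.68, 0.89, 2.02 and -0.82 in the same sequence of groups, with LSC, lymphomas and DP thymocytes overlapping as neighbours. Cd274 was at 1.99, 2.71, 1.97, 4.01 and 2.44, where LSC, lymphomas and HSC overlapped as neighbours, and so did ZNF112 and DP thymocytes.

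Havcr2 was at -1.65 in ZNF112, -1.16 in lymphomas, -1.56 in DP thymocytes, 2.35 in LSC and 0.12 in HSC, with LSC clear of HSC and HSC clear of lymphomas. Lag3 was at -1.22, -0.59, -0.24, -0.63 and -1.08 in the same sequence, and every pair of neighbours overlapped except HSC and ZNF112. Cd160 was at 0.82, 0.72, 0.94, 1.73 and 1.24, with ZNF112 and DP thymocytes each overlapping with lymphomas and LSC above all other groups.

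Genes were ranked by how closely their log2 intensity followed each receptor over the 8 arrays of ZNF112, lymphoma and DP thymocytes, as a description of these arrays. Ctla4 was followed most closely by Gbp3 and Glipr2 (Pearson r = 0.995 and 0.992), and Icos by Tapbp and Slc25a39 (0.990 and 0.989). For Cd28 they were D5Ertd579e and Airn (0.989 and 0.983), for Pdcd1 Adamtsl2 and Pgap1 (0.974 and 0.972), for Btla Nbea and Sult1a1 (0.987 and 0.986), and for Cd274 Spag9 and Akap9 (0.974 and 0.972). The 8 arrays share a normalization and fall into 3 groups, so such values are high for many genes. Among the receptor genes themselves, the highest r were 0.937 between Pdcd1 and Havcr2, 0.91 between Havcr2 and Cd274 and 0.908 between Ctla4 and Icos. The lowest were -0.823 between Cd28 and Btla and -0.822 between Havcr2 and Cd160. Havcr2 lay under the filter level on all 8 of these arrays.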

How the data were processed

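Trizol-extracted RNA was amplified and biotin-labelled, per the labels, with 1 Affymetrix Mouse430 2.0 array a sample. What the authors deposited is an intensity per probe set, not on a log scale, made with RMA per the submitters' processing notes, which give no version. Scanner files were not used here. Log2 was taken of the deposited intensity before each test.

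Single gene symbols from the platform annotation named 34945 probe sets; those with several symbols (932), with none (9160) and the 64 array controls were left out. The 9 measured receptor genes, with 15 probe sets, matched RefSeq by Entrez identifier. For 18193 genes the brightest probe set on average was kept, and 12797 above log2 6.33 (intensity 80.2) in at least 2 arrays were tested. No genome build is named for the files.

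Differences were tested two-sided by lmFit and eBayes of limma 3.58.1 (R 4.3.3) with a mean for each group over 12 arrays, so that groups share 1 spread, and Benjamini-Hochberg adjusted p under 0.05 as a call. The spread differed by group: the root mean square SD was 0.619 in T lymphoma, 0.153 in DP thymocytes, 1.02 in LSC and 0.554 in HSC. The labels call the replicates biological. The script was tested on simulated data. The genes, lists and tests were chosen with earlier results of these data known. From each list, genes past the test are named, up to 6 in each direction, and up to 2 that did not pass. Array number, not depth, limits the precision.

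Alternatives were the arrays in the fit, the filter, a pseudocount of 32, normalization, the probe set, array weights, moderation, leaving out each array, and a replicate block.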

Additional observations from a re-analysis of the deposited data

How the results depend on the processing

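Ctla4 kept its call in T lymphoma against DP thymocytes in all 19 alternatives (log2 difference 6.42 to 8.23) and in LSC against HSC in 14 of 15. The number of receptor genes higher in T lymphoma was 1, and 2 with quantile normalization, 3 with array weights and 1 to 2 when each array was left out, while 1 was lower with array weights. Between LSC and HSC it was 4, and 0 with only those groups in the fit, 1 with array weights and 2 to 4 when each array was left out. With only those groups 0 of all genes were called by limma, 1535 had an unadjusted p under 0.05, and the adjusted p was 0.177 for Icos, 0.381 for Havcr2 and 0.29 for Btla. The difference of the contrasts had 0 to 2 lower when each array was left out, and the sorted lymphoma against the unsorted ones had 2 higher with array weights (Cd28 and Lag3).

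Values that turned sign were uncalled on both sides. In T lymphoma against DP thymocytes these were Cd160 with the mean of its probe sets (0.44), Pdcd1 without each array in turn (-0.026 without lymphoma 1, to 1.42) and, with the sorted lymphoma alone, Cd28 (0.45), Pdcd1 (-0.98), Lag3 (0.94) and Havcr2 (-0.051). Lag3 in LSC against HSC ran between -0.13 without LSC 1 and 0.98 without LSC 2. In ZNF112 against lymphomas they were Cd160 with the mean of its probe sets (-0.27), Icos without lymphoma 3 (-0.27), Ctla4 without each lymphoma (-0.84 to 0.18, without lymphoma 4) and, against the sorted lymphoma alone, Icos (-0.69), Pdcd1 (0.12), Cd160 (-0.046) and Btla (0.67). In sorted against unsorted lymphomas they were Cd160 with the mean of its probe sets (-0.45) and Cd274 without each lymphoma (-0.72 to 0.11, without lymphoma 1). The cause was not tested.

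With the replicate number as a block, which uses lymphomas 1 to 3 only, 2 receptor genes were higher in T lymphoma (Btla at 2.19, limma, adjusted p = 0.0287, beside Ctla4) and 2 were lower in the difference of the contrasts (Cd28 and Icos, adjusted p = 0.0311 and 0.0248). The correlation of same-numbered arrays' deviations was 0.033, -0.067 and -0.001 for lymphoma and DP thymocytes and 0.098 for both LSC and HSC pairs, and across the sides 0.218 and -0.14 for lymphoma and LSC and 0.131 and 0.037 for DP thymocytes and HSC. Not every pair was over 0.1, so the numbers were not taken as pairs.

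Counts over all genes moved too. T lymphoma against DP thymocytes had 838 calls, and 1826 with only those groups, 4681 with array weights, 303 with the sorted lymphoma alone and 383 to 1572 without 1 array. LSC against HSC had 1313, and 103 with array weights and 774 to 2716 without 1 array. The difference had 1136, and 311 with array weights and 446 to 2444 without 1 array. ZNF112 against lymphomas had 148, and 4 with only those groups, 1834 with array weights, 67 against the sorted lymphoma and 68 to 290 without 1 lymphoma. The sorted against unsorted comparison had 84, and 0 with only those arrays (1281 at an unadjusted p under 0.05), 53 with no filter, 38 with the stricter filter, 50 with probe set means, 52 without shared probe sets, 948 with array weights and 40 to 248 without 1 lymphoma. LSC and HSC rest on 2 arrays each.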
